A study of Homo sapiens with 2 samples.

Results

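HOX genes encode homeodomain transcription factors and lie in 4 clusters, HOXA on chromosome 7, HOXB on chromosome 17, HOXC on chromosome 12 and HOXD on chromosome 2. Here 38 HOX genes were taken by Entrez identifier from the 40392 genes of both deposited tables, 10 in HOXA, 10 in HOXB, 9 in HOXC and 9 in HOXD. The samples were 2 RNA sequencing libraries of KYSE30, an established esophageal squamous cell carcinoma cell line, with 1 library per group. The mock library came from stable transfectants of the pIRES2-EGFP vector. The RHCG library came from cells that stably carry a vector expressing human RHCG, a Rhesus family membrane protein that carries ammonia. The labels do not say whether a transfectant was a clone or a pool, which limits both as models. As each group had 1 library, the spread between replicates is unknown, no test was run and all differences are between these 2 libraries. Differences between cultures, clones or library preparations cannot be told apart from the effect of RHCG.

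Within a cluster the genes are numbered 1 to 13 by paralog group, a number that marks the descendants of 1 ancestral gene across the clusters. Low numbers are expressed toward the head of the embryo and high numbers toward the tail, and adult epithelia and tumours keep part of such a pattern. HOX proteins bind DNA together with TALE cofactors of the PBX and MEIS families. Polycomb complexes hold silent HOX clusters closed, trithorax complexes keep active ones open, and retinoic acid induces genes of low number in embryos.

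The scaling of the tables corresponded to a depth of about 18960000 reads for mock cells and 22090000 for RHCG cells, so 1 RPKM (reads per kilobase of transcript, scaled to depth) rested on about 18.96 and 22.1 reads per kilobase. RHCG itself was at 0 in mock cells and at 413 RPKM in RHCG cells, the direction its labels give. A list of 13 epithelial genes held squamous markers and also EPCAM and CDH1, which are not particular to squamous epithelium. Of these 13 genes 12 were listed above 0, while KRT5 was listed at 0 in both. Of the 12, 8 were lower and 4 higher in RHCG cells, with a median log2 ratio of −0.72 and a summed level of 830 RPKM in mock cells and 489 in RHCG cells. KRT6A (38.8 and 3.51 RPKM), KRT15 (101 and 27.3), KRT13 (407 and 164) and SOX2 (23.1 and 9.62) were more than 2-fold lower (3.30% of all genes were). The 4 higher genes were KRT14, KRT4, EPCAM (66.5 and 119.95 RPKM) and CDH1 (76.5 and 84.7 RPKM). What part this has in the HOX values was not tested. Of markers of other cell types, 2 of 9 fibroblast genes, 1 of 7 leukocyte genes, 0 of 6 endothelial genes and 0 of 6 columnar epithelium genes were listed above 0. A gene listed at 0 had 1 RPKM or less or was not counted, and the tables do not separate these cases.

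The HOXD cluster held the gene with the highest ratio, HOXD1, and a second gene listed in the RHCG library, HOXD13, with genes listed at 0 between them. The start regions of HOXD1, of its neighbour HOXD3, which was listed at 0 in both libraries, and of HOXD13 are shown for that contrast. Each runs from 250 bases before to 50 bases after the start on the plus strand (RefSeq sequence, GRCh38.p14), and capitals mark a CCAAT box, an E box (CACGTG) or a TATA box (TATAAA) on either strand.
HOXD1, chr2:176188418-176188717: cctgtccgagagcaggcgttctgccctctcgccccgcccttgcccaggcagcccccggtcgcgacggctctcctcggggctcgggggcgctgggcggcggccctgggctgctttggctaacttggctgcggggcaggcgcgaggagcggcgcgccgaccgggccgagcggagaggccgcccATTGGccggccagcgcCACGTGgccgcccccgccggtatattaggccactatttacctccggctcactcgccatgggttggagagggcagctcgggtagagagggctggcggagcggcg
HOXD3, chr2:176157057-176157356: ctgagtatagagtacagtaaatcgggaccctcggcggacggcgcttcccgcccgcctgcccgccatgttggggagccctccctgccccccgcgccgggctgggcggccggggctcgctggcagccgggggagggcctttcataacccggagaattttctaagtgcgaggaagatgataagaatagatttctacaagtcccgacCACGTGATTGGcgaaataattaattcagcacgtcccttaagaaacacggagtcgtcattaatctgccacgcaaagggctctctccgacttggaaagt
HOXD13, chr2:176092471-176092770: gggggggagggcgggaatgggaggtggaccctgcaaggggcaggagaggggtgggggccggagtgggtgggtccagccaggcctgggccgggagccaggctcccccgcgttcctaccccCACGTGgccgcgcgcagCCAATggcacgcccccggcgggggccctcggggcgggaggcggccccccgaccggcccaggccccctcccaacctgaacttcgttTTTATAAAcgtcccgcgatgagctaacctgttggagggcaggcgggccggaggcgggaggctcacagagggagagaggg
All 3 windows held CACGTG, the E box, starting 53, 47 and 131 bases before the start. All 3 also held CCAAT, on the minus strand in HOXD1 and HOXD3 and on the plus strand in HOXD13. Only HOXD13 among the 3 held TATAAA, as overlapping matches on both strands. GC content was 74.3% in HOXD1, 58% in HOXD3 and 74% in HOXD13. The presence of CCAAT and of the E box did not separate the gene listed at 35.1 RPKM from the one listed at 0.

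Promoter sequences were matched for 20 of the 38 genes, with 27 windows in all because some genes have several starts. None was matched for HOXC13, HOXB7 and HOXC10, the most abundant HOX genes of the mock library, so the motif counts do not cover them. CCAAT was found in 18 of these 27 windows, against 34.6% of all 35116 windows of that length. CACGTG was found in 9 of 27, against 7.26% of all windows. The 27 windows held a median of 22 CG pairs, against 14 in all windows, at a median GC content of 58% and 58.7%. As CACGTG holds a CG pair, its shares were not compared at like CG number. TATAAA was in 5 of 27 (11.5% of all windows) and GGGCGG, the GC box of SP1, in 13 of 27 (45.0% of all). TGATNNAT, a PBX-HOX motif, was in 3 of 27, in HOXA2, HOXB1 and HOXD11 (7.40% of all). Both strands were searched for every motif, CACGTG reads the same on both, and neighbouring HOX genes can share a window, as HOXC4 and HOXC5 do.

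The clusters also carry microRNA genes, and the miR-196 family is shown because its 3 genes lie in 3 clusters and only 1 of them was listed. The seed, bases 2 to 8, is in capitals (RefSeq, GRCh38.p14).
hsa-miR-196a-5p (MIR196A1 in HOXB, MIR196A2 in HOXC): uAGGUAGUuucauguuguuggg
hsa-miR-196b-5p (MIR196B in HOXA): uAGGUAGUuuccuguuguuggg
hsa-miR-615-3p (MIR615 in HOXC): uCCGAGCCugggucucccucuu
The miR-196 sequences share their seed and differ by A12C, counted from the 5′ end with the base of miR-196a first. MIR196B was listed at 6.13 RPKM in mock cells and at 3.89 in RHCG cells, about 9.76 and 7.22 reads. MIR615, which lies within the annotated spans of HOXC4 and HOXC5, was listed at 1.65 RPKM, about 3.003 reads, in mock cells and at 0 in RHCG cells. MIR196A1, MIR196A2, MIR10A and MIR10B were listed at 0 in both. These are too few reads for a comparison, and reads of long transcripts over a hairpin cannot be told apart from its own RNA.

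Of the 38 HOX genes, 22 were listed above 0 in at least 1 library, 11 in both, 9 in mock cells only (4.88% of all genes listed) and 2 in RHCG cells only (2.82%). That is 57.9% of the members, close to the 59.7% of all protein-coding rows listed above 0. The 16 genes listed at 0 in both were HOXA9, HOXB1, HOXB2, HOXB5, HOXB8, HOXC4, HOXC5, HOXC8, HOXC12, HOXD3, HOXD4, HOXD8, HOXD9, HOXD10, HOXD11 and HOXD12. HOXA was listed most fully, with 9 of 10 genes, then HOXB with 6 of 10, HOXC with 5 of 9 and HOXD with 2 of 9. No gene of paralog groups 8 and 12 was listed above 0, and all genes of groups 6, 7 and 13 were. Another annotated gene or transcript overlapped 9 of the 16 genes listed at 0 and 14 of the 22 listed above 0, and how the authors assigned shared reads is not stated in the labels.

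**Figure D1:**
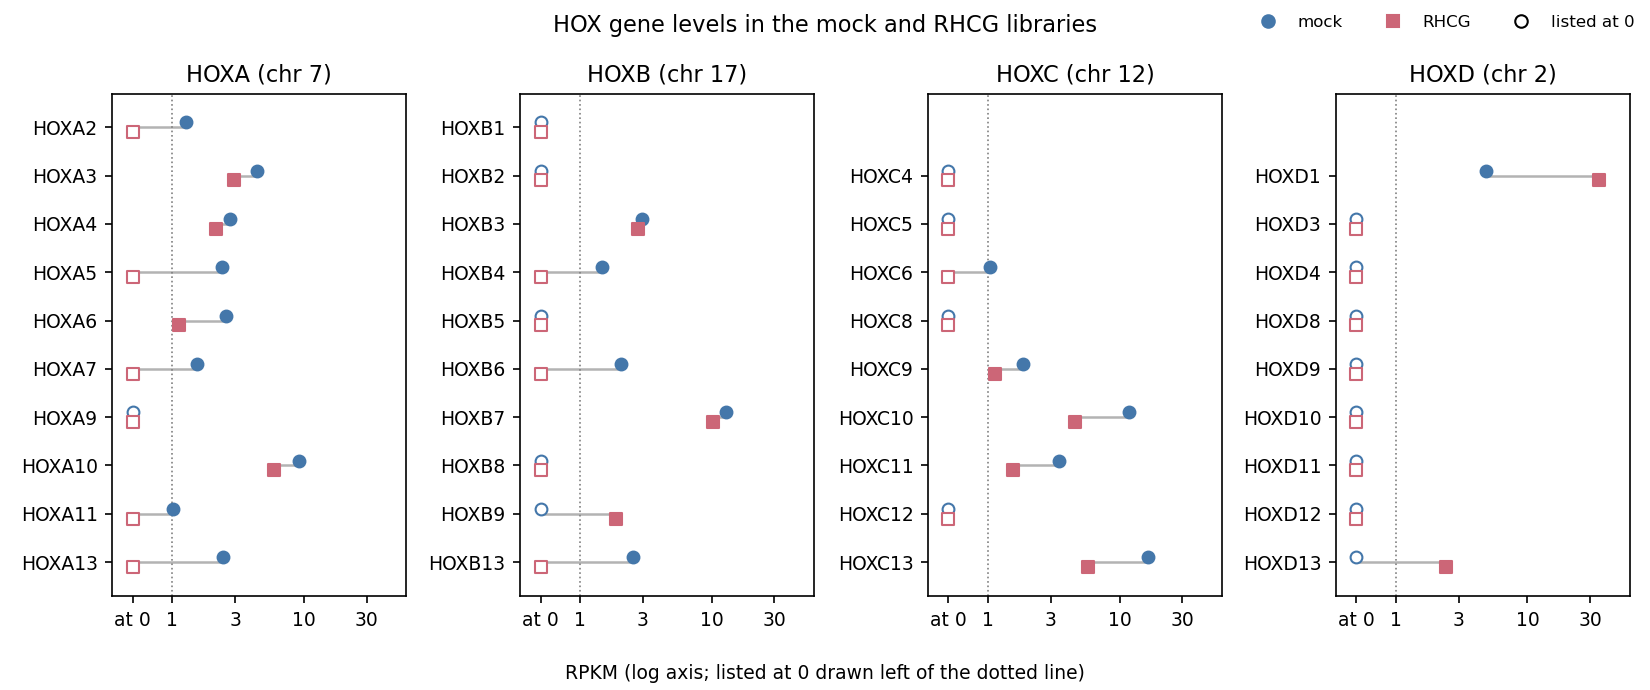
Level of each of the 38 HOX genes in RPKM on a log axis, by cluster and paralog number, in the mock library (circles) and the RHCG library (squares), with open symbols left of the dotted line for genes listed at 0. Most pairs have the square to the left of the circle, and HOXD1 has it far to the right, at 35.1 RPKM against 4.84.

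Genes were compared by the log2 ratio of (RHCG + 1)/(mock + 1) in RPKM, a listed 0 being read as 1 RPKM, and those at 1 and above are called higher, those at −1 and below lower. Of the 22 HOX genes, 1 was called higher, against 2.74% of all 12857 genes listed in at least 1 library, and 2 were called lower, against 3.30%. These counts of calls are too small to set the HOX genes apart from the background. By direction, 19 of the 22 had a log2 ratio below 0 and 3 above, against 50.5% of all genes below 0. The floor of 1 RPKM alone puts the 9 genes listed in mock cells only below 0 and the 2 listed in RHCG cells only above. Among the 11 HOX genes listed in both libraries 10 lay below 0, against 49.4% of all such genes. The median log2 ratio of the 22 was −0.37, against −0.01 over all genes. The other genes of a cluster are not independent of each other, so these counts describe the clusters and are not a test.

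**Figure D2:**
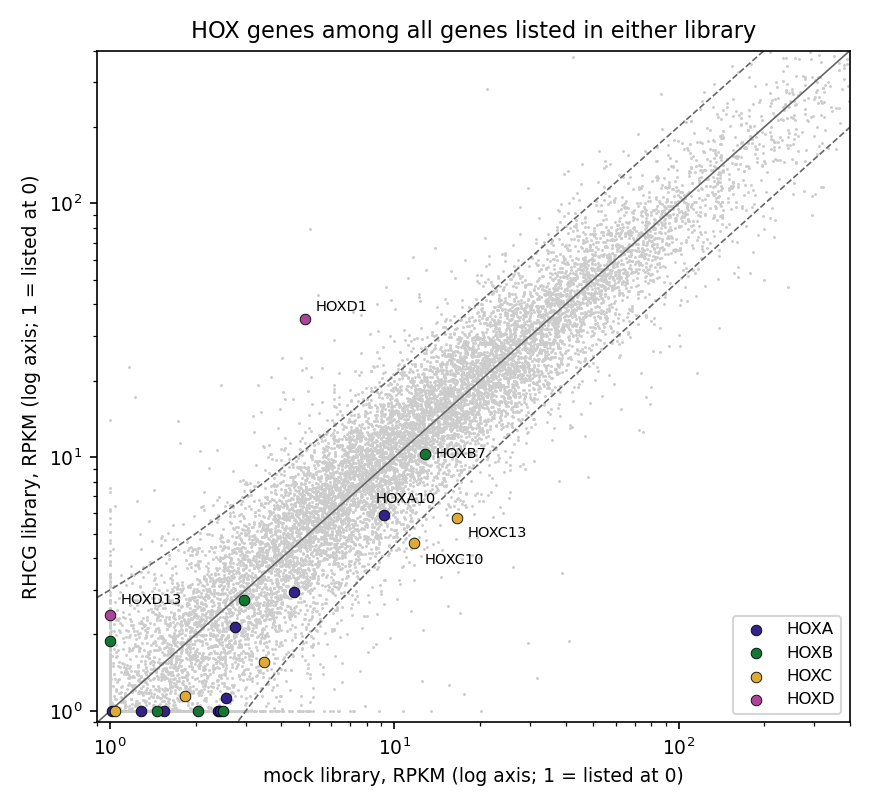
RPKM in the mock library against RPKM in the RHCG library, both on log axes, for all genes listed in at least 1 library (grey) and the HOX genes (coloured by cluster); the solid line is equality and the dashed lines are the 2-fold rule. HOXD1 lies above the upper dashed line, HOXC13 and HOXC10 lie below the lower one, and most other HOX genes lie between equality and the lower line.

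HOXD1, a gene of paralog group 1, was at 4.84 RPKM in mock cells and 35.1 RPKM in RHCG cells. The plain ratio was 7.25-fold, with an approximate 95% exact (Clopper-Pearson) counting interval of 6.22 to 8.52, and the log2 ratio was 2.63. About 181 and 1531 reads stood behind these values, and the interval covers counting error only. HOXD1 ranked 11 from the top among the 12857 genes by log2 ratio. Among the HOX genes it moved from rank 5 in the mock library to rank 1 in the RHCG library. HOXD13, a factor of limb digits and the urogenital tract, was at 0 in mock cells and at 2.40 RPKM in RHCG cells. HOXD3, HOXD4, HOXD8, HOXD9, HOXD10, HOXD11 and HOXD12, which lie between them, were listed at 0 in both. HAGLR, a long non-coding RNA whose annotation overlaps HOXD1, was listed at 0 in both libraries too. In HOXD the difference was thus seen at the outermost genes of the cluster and no gene between them was listed.

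Both HOX genes called lower were in HOXC, where all 5 listed genes had log2 ratios below 0 and 4 of 9 genes were listed at 0 in both libraries. HOXC13, which controls hair and nail keratin genes, was the most abundant HOX gene in the mock library, at 16.6 RPKM against 5.75 in RHCG cells, 2.89-fold lower (approximate interval 2.53 to 3.32). HOXC10 was at 11.7 and 4.59 RPKM, 2.56-fold lower (2.19 to 2.995). They ranked 153 and 250 from the bottom among all genes. HOXC11 was at 3.49 and 1.56 RPKM, a plain ratio of 2.24-fold (1.78 to 2.85), but its log2 ratio with 1 RPKM added was −0.81 and it was not called. HOXC9 was at 1.83 and 1.14 RPKM, and its interval of the lower fold, 1.06 to 2.45, lay just off equality. HOXC6 was at 1.04 RPKM in mock cells, only just above the listing limit, and at 0 in RHCG cells. Its RefSeq span starts at the same base as those of HOXC4 and HOXC5, both listed at 0. The listed HOXC genes thus lay at the high-number end, paralog groups 9 to 13, apart from HOXC6.

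All 9 listed HOXA genes had log2 ratios below 0, and 0 of the 9 were called in either direction. HOXA10, known for its part in the uterus and blood lineages, was the most abundant, at 9.16 and 5.91 RPKM, 1.55-fold lower (1.38 to 1.75). HOXA3 was at 4.43 and 2.94 RPKM, 1.51-fold lower (1.29 to 1.77), and HOXA4 at 2.75 and 2.14 RPKM, where the interval of the lower fold, 0.949 to 1.76, held equality. HOXA6 was at 2.55 and 1.13 RPKM, a plain ratio of 2.26-fold (1.45 to 3.57) on about 62.2 and 31.98 reads. A further 5 genes were listed in the mock library only, so the floor of 1 RPKM sets their ratios below 0. HOXA13 stood at 2.43 RPKM there, HOXA5 at 2.40, HOXA7 at 1.54, HOXA2 at 1.28 and HOXA11 at 1.01. As the tables list 0 at 1 RPKM and below, HOXA11, HOXA2 and HOXA7 lie close to that limit, while HOXA13 and HOXA5 lie further above it. The annotated span of HOXA3 covers part or all of HOXA4, HOXA5 and HOXA6, so how their reads were divided is uncertain.

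Both HOXB genes listed in each library lay close to equality. HOXB7, the most abundant HOXB gene and often raised in epithelial tumours, was at 12.9 RPKM in mock cells and 10.3 in RHCG cells, 1.25-fold lower (1.07 to 1.45). HOXB3 was at 2.96 and 2.74 RPKM, with an interval of 0.943 to 1.24 for the lower fold that held equality. HOXB13, a partner of the androgen receptor in prostate, was at 2.503 RPKM, HOXB6 at 2.03 and HOXB4 at 1.46 in mock cells, and all 3 were listed at 0 in RHCG cells. HOXB9 went the other way, at 0 in mock cells and at 1.88 RPKM in RHCG cells. Among the 11 HOX genes listed in both libraries, the counting interval of the plain ratio lay wholly below equality for 8, wholly above for HOXD1 and across it for HOXA4 and HOXB3.

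Low values cross the listing limit easily, so the same counts were taken among genes of like level. Where the higher of both values was under 5 RPKM, 9 of 17 HOX genes were listed in mock cells only and 2 in RHCG cells only, against 16.3% and 9.36% of the 3771 genes in that range. In the same range 15 of 17 HOX genes lay below 0, against 56.4% of genes. Between 5 and 20 RPKM all 4 HOX genes (HOXA10, HOXB7, HOXC10 and HOXC13) lay below 0, against 46.9% of 4769 genes, and 2 of the 4 were called lower, against 3.63%. HOXD1 was the only HOX gene with a value of at least 20 RPKM.

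Summed over listed genes, HOXA stood at 27.6 RPKM in mock cells and 12.1 in RHCG cells, HOXB at 21.8 and 14.9, HOXC at 34.7 and 13.03, and HOXD at 4.84 and 37.5. HOXD thus made up 5.44% of the summed HOX level in mock cells and 48.3% in RHCG cells, nearly all of it HOXD1. HOXC went from the leading cluster, with 39.0%, to 16.8%. Genes listed at 0 add nothing to these sums, which can therefore overstate a difference in clusters with genes near the limit. The median log2 ratios were −0.46 in HOXA (9 genes), −0.30 in HOXB (6 genes), −0.81 in HOXC (5 genes) and 1.70 in HOXD (2 genes).

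By position, paralog groups 1 to 3 had a median log2 ratio of −0.14 over 4 genes. It was −0.32 over 8 genes in groups 4 to 8 and −0.67 over 10 genes in groups 9 to 13. Over genes listed in both libraries the medians were −0.08 (3 genes), −0.29 (3 genes) and −0.81 (5 genes). The other ratios rest on the floor of 1 RPKM. Of the last 5 genes all but HOXA10 were in HOXC, so position and cluster cannot be told apart there. The summed level was 13.5 and 40.8 RPKM in groups 1 to 3, 26.6 and 13.6 in groups 4 to 8 and 48.8 and 23.2 in groups 9 to 13. HOXD1 alone sets the direction of the first sum. In paralog groups 9 and 13 the listed genes lay on both sides of 0, and in each other group with at least 2 listed genes all of them lay below 0. In those other groups HOXA7, HOXA11, HOXB4, HOXB6 and HOXC6 were listed in mock cells only. The floor of 1 RPKM alone puts them below 0. In group 13, HOXC13 was lower, HOXA13 and HOXB13 were listed in mock cells only and HOXD13 in RHCG cells only. In group 9, HOXC9 was at 1.83 and 1.14 RPKM, HOXB9 was listed in the RHCG library only, and HOXA9 and HOXD9 were at 0 in both. In group 10, HOXA10 and HOXC10 both lay below 0 (−0.56 and −1.19) and HOXD10 was listed at 0. In group 3, HOXA3 and HOXB3 lay below 0 (−0.46 and −0.08) and HOXD3 was listed at 0.

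**Figure D3:**
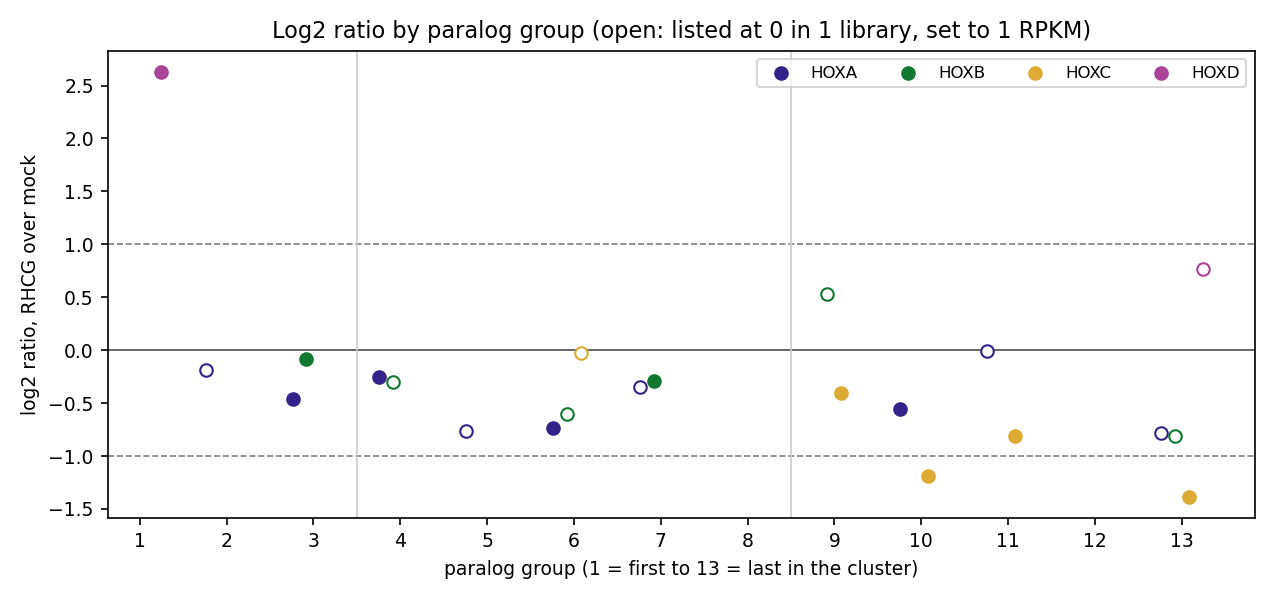
Log2 ratio of RHCG over mock against paralog group for the 22 listed HOX genes, coloured by cluster; open circles are genes listed at 0 in 1 library, whose ratio depends on the floor of 1 RPKM. HOXD1 stands alone above the upper dashed line at 2.63, and the lowest points are HOXC10 and HOXC13 in groups 10 and 13.

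The genes around each cluster were measured in the same way, as the 10 nearest protein-coding genes outside the HOX family listed in at least 1 library on each side, in RefSeq order. Around HOXC, 16 of 20 flanking genes lay below 0 (50.5% of all genes) and 2 were called lower (3.30%), with a median log2 ratio of −0.54. The nearest on the HOXC13 side were CALCOCO1 (26.96 and 15.02 RPKM, −0.80) and ATP5MC2 (−0.55), and on the HOXC4 side SMUG1 (19.2 and 14.6 RPKM, −0.37) and CBX5 (−0.56). With that flanking median taken off, HOXC13 was at −0.84, HOXC10 at −0.64 and HOXC11 at −0.27, so no HOXC gene was called lower. HOXC9 then lay above 0, at 0.14. HOXC6 came out at 0.52, but it was listed at 0 in RHCG cells. Its value rests on the floor of 1 RPKM and does not show a higher level. What part the neighbourhood has in the HOXC values was not tested. Around HOXD, 15 of 20 flanking genes lay above 0 and 3 were called higher (2.74% of all genes), with a median of 0.64. MTX2, next to HOXD1, was at 2.89 and 5.02 RPKM (0.63) and HNRNPA3 at 6.60 and 12.95 RPKM (0.88), while LNPK, next to HOXD13, was at 2.04 and 2.37 RPKM (0.15) and ATP5MC3 at −0.19. With the flanking median taken off, HOXD1 was still called higher, at 1.99, while HOXD13 went from 0.76 to 0.12. Both HOXD13 values read its listed 0 in mock cells as 1 RPKM, and a lower mock level would raise them. The median was 0.71 on the HOXD1 side and 0.36 on the HOXD13 side, and the highest of these 20 genes was at 1.34, below HOXD1.

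Around HOXA the flanking median was −0.13, with 13 of 20 genes below 0. It was −0.33 on the HOXA2 side, with 7 of 10 genes below 0, and −0.08 on the HOXA13 side, with 6 of 10. The genes next to the cluster lay above 0, SKAP2 at 0.37 on the HOXA2 side and HIBADH (40.7 and 76.6 RPKM, 0.90) and TAX1BP1 (0.53) on the HOXA13 side, while SNX10 was at −0.50. Around HOXB the flanking median was 0.02, with 10 genes on each side of 0. SNX11 (0.57) and CBX1 (−0.56) flank HOXB1, and CALCOCO2 (15.02 and 30.7 RPKM, 0.98) and ATP5MC1 (0.05) flank HOXB13. The medians of the listed HOXA and HOXB genes, −0.46 and −0.30, thus lay below those of their flanks, and no test of that difference was made. Over genes listed in both libraries the medians were −0.51 in HOXA (4 genes) and −0.19 in HOXB (2 genes). The other ratios rest on the floor of 1 RPKM.

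**Figure D4:**
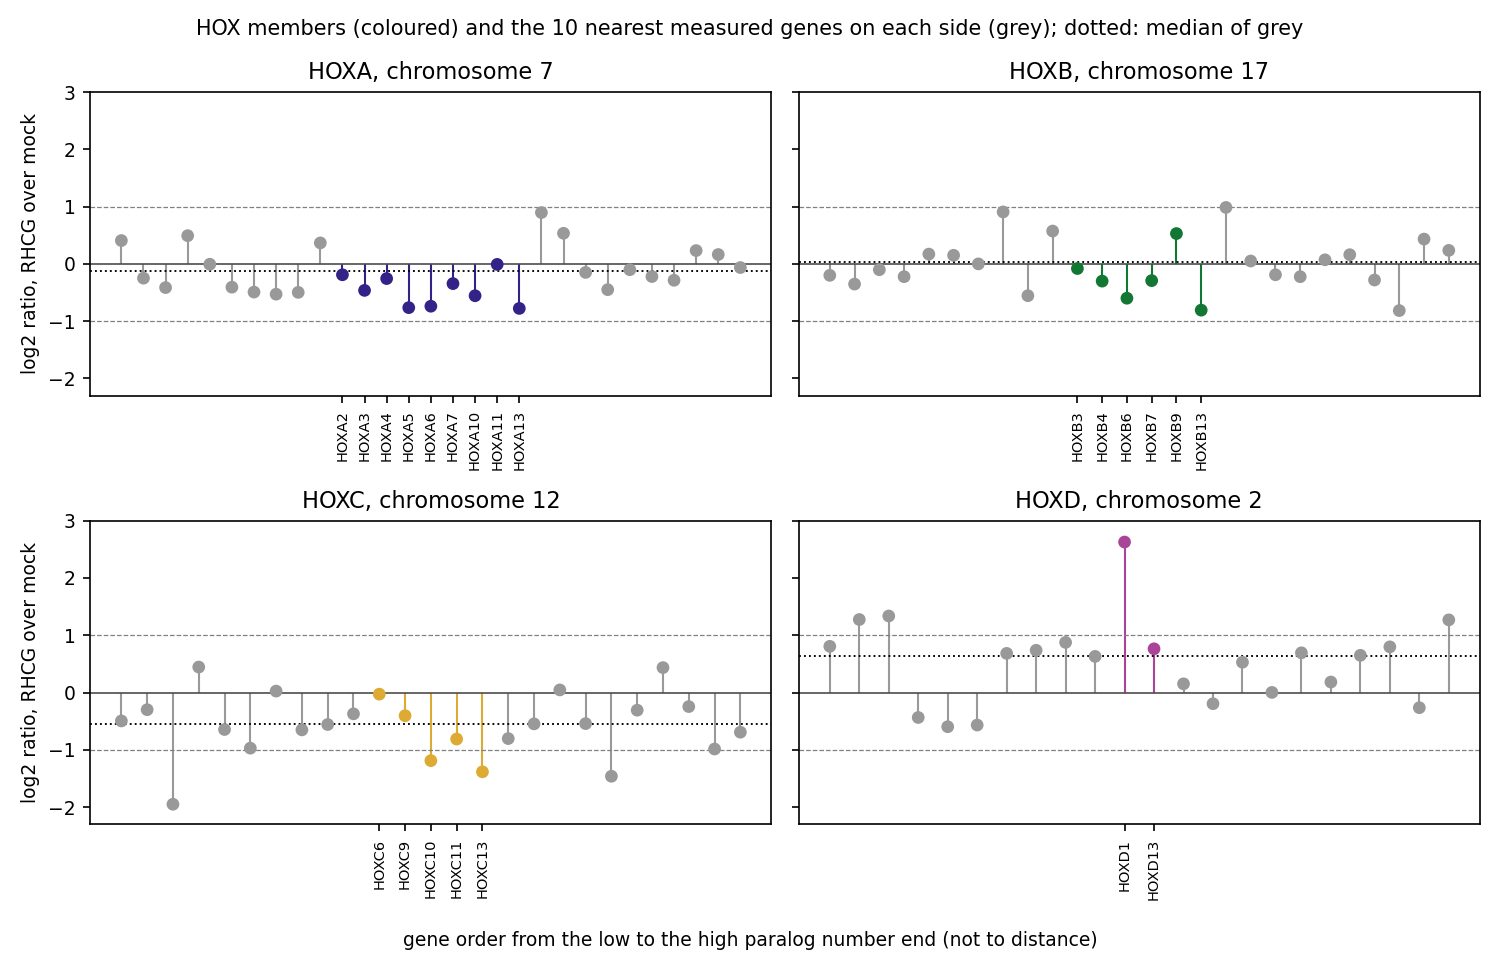
Log2 ratio of RHCG over mock in gene order for the listed HOX genes (coloured) and the 10 nearest listed protein-coding genes on each side (grey), with the dotted line at the grey median. Grey points run mostly below 0 around HOXC (median −0.54) and mostly above 0 around HOXD (median 0.64), and HOXD1 at 2.63 rises above its neighbours.

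Long non-coding RNA genes of the clusters were low. Of 20 listed by name, 14 had a row and 4 were listed above 0, all with ratios below 0 and none past 2-fold (3.30% of all genes were lower). HOTAIRM1, at the low-number end of HOXA, was at 10.1 and 8.95 RPKM, HOXA11-AS, which lies next to HOXA11, at 2.72 and 1.64 RPKM, HOXA-AS2 at 1.597 and 1.396 RPKM, and HOXC-AS1 at 1.14 RPKM in mock cells and at 0 in RHCG cells. HOTAIR, which is made from the HOXC cluster, and HOTTIP, at the end of HOXA, were listed at 0 in both. Without a stated strand setting, reads of a HOX gene and of its antisense partner cannot be told apart. None of the 13 ParaHox, EVX and related homeobox genes, among them CDX1, CDX2, EVX1 and EVX2, was listed above 0.

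The TALE cofactors leaned the same way as the HOX genes. Of 9 genes 8 were listed and 7 lay below 0, against 50.5% of all genes, with a median of −0.39. None was past 2-fold, where 2.74% of all genes were higher and 3.30% lower. PBX2, the most abundant, was at 37.0 RPKM in mock cells and 42.4 in RHCG cells. MEIS3 was at 8.90 and 4.88 RPKM, the lowest ratio of the list at −0.75.

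Most regulators of HOX chromatin differed little between the libraries. Of 23 Polycomb genes 14 lay above 0 and 9 below, with a median of 0.06, and 1 was called lower, against 3.30% of all genes. It was CBX2, a reader subunit of Polycomb repressive complex 1, at 14.7 and 4.32 RPKM, 3.39-fold lower. Nearest to a call among the others were PHC2 (24.6 and 48.3 RPKM, 0.94) and CBX8 (11.8 and 6.01 RPKM, −0.87). Of 13 trithorax genes and demethylases 9 lay above 0, the median was 0.20 and none was called (2.74% of all genes were higher and 3.30% lower). DPY30 and WDR5, core subunits of the methyltransferase complexes, were the most abundant, with DPY30 at 35.9 and 41.5 RPKM, WDR5 at 34.1 and 37.2 RPKM. KDM6B was at 2.11 and 4.26 RPKM, a plain ratio of 2.02-fold, but its log2 ratio with 1 RPKM added was 0.76. Of 9 genes for geminin, CTCF and cohesin none was called, with a median of −0.02. RAD21, a cohesin subunit, was at 35.96 and 33.7 RPKM, and GMNN, geminin, which restrains replication licensing and HOX activity, was at 33.5 and 16.4 RPKM, just short of the call at −0.99.

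Of 18 retinoic acid genes 10 were listed and 8 were at 0 in both libraries. Of the 10, 9 lay below 0 (50.5% of all genes), 2 were called lower (3.30%) and 1 higher (2.74%), with a median of −0.61. ALDH1A3, which makes retinoic acid from retinaldehyde, was at 219 RPKM in mock cells and 86.3 in RHCG cells, 2.53-fold lower. DHRS3, which reduces retinaldehyde back to retinol, was at 173 and 81.8 RPKM, 2.11-fold lower. STRA6, a receptor that takes up retinol, was at 2.42 and 6.99 RPKM, 2.89-fold higher. RDH10 was at 10.8 and 5.21 RPKM, a plain ratio of 2.07-fold lower, but its log2 ratio with 1 RPKM added was −0.92 and it was not called. The called genes were thus a producing and a restraining enzyme, both lower, and an importer that was higher.

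**Figure D5:**
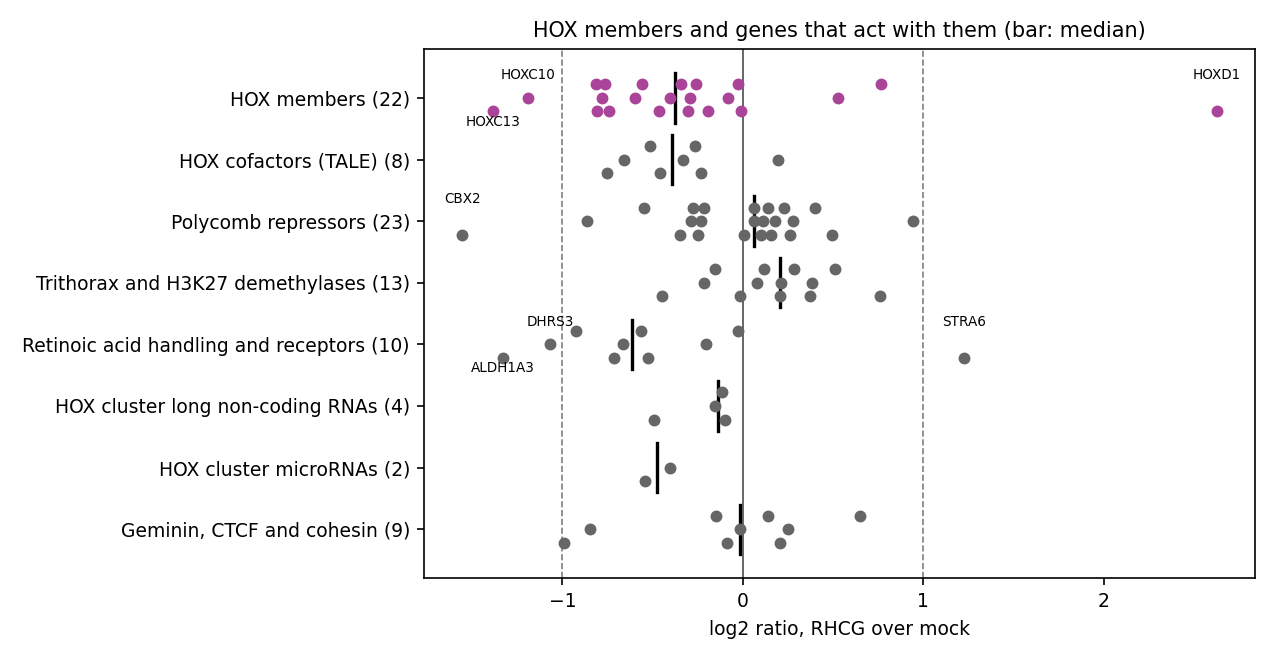
Log2 ratio of RHCG over mock for each listed gene of the HOX clusters and of 7 lists of genes that act with them, with the number listed in brackets and a bar at the median. The bars of the HOX genes (−0.37), the TALE cofactors (−0.39) and the retinoic acid genes (−0.61) lie left of 0, and those of the Polycomb (0.06) and trithorax (0.20) genes lie near or right of 0.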

How the data were processed

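Total RNA was depleted of ribosomal RNA and sequenced on Ion Torrent barcoded libraries, per the labels' protocols. The submitters' processing notes give hg19 as build and bedtools 2.25.0 as tool, while aligner and counting method are not stated. The deposited tables, 1 for each library, hold the authors' log2 values of RPKM, with no pseudocount and no value below 0. The 40448 rows, 112 of them with a copy suffix, were summed to 40392 Entrez genes, and symbols came from RefSeq (GRCh38.p14), so gene coordinates are given only for the printed sequences. Depth was recovered from single-exon genes under 400 bases, whose RPKM times length falls on multiples of 1 constant; 23.4% (mock) and 32.1% (RHCG) of values under 20 reads lay within 0.02 reads of a whole number, so counts were not recovered. Approximate reads used GENCODE 29 exonic lengths and gave 95% exact intervals that cover counting error only. The design's mean of at least 1 RPKM became listing above 0 in at least 1 library, since 0 was set to 1 RPKM. The members, lists and alternatives were chosen with earlier results of these data known. Every listed HOX gene is named. Of the lists, the genes past 2-fold, or the 2 most abundant, are named. MEIS3, PHC2, CBX8, KDM6B, RDH10 and the non-coding RNAs were added, chosen after their values were seen. The values of 1 gene that this rule names are not reported here. Software was scipy 1.17.1, pandas 2.3.3 and numpy 2.4.6 under Python 3.11.15, with matplotlib 3.10.9 for figures and statsmodels 0.14.6 for the trend with GC content and length.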

Additional observations from a re-analysis of the deposited data

How the results depend on the processing

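No paired analysis was possible because each group had 1 library, so none could be left out either. Removal of a GC and length trend, removal of the flanking median and the restriction to genes listed in both libraries were chosen after seeing the data. HOXD1 was called higher under every setting run (1.99 to 2.83). HOXC10 and HOXC13 were called lower under every setting except removal of the flanking median. Over all genes, 352 were higher and 424 lower; these counts were 533 and 673 at a pseudocount of 0.1 RPKM, 686 and 1004 if a listed 0 was read as 0 RPKM, and 1447 and 1481 under the 1.5-fold rule. The 1 higher and 2 lower HOX genes became 2 and 7, 3 and 11, and 2 and 8 under these settings, each of which loosens the rule by construction, and 0 HOX genes were lower with the flanking median removed. The HOXD median of 1.70 became 2.01 at a pseudocount of 0.1 RPKM, 2.20 if 0 was read as 0 RPKM and 0 without a filter. It became 1.06 with the flanking median removed. For a mean of at least 5 RPKM or listing in both libraries it was 2.63, the value of HOXD1 alone. The HOXC median of −0.81 became −0.028 without a filter and −0.27 with the flanking median removed. When the mean was 5 RPKM or more it was −1.29, from HOXC10 and HOXC13 only. The HOXB median became −0.041 without a filter and −0.80 if 0 was read as 0 RPKM, and the HOXA median then became −1.01. With no filter, genes listed at 0 in both enter at a ratio of 0. Of 22 HOX genes 19 lay below 0 under both scalings, 17 after the trend was removed and 16 after the flanking median was removed. HOXA11 and HOXC6, whose ratios rest on the floor, were among the genes moved above 0 by each removal. The median of all HOX genes, −0.37, became −0.58 at a pseudocount of 0.1 RPKM and −0.91 if 0 was read as 0 RPKM. It was −0.56 for a mean of at least 5 RPKM, over 5 genes, and −0.0048 without a filter.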
